A study of Mus musculus with 4 samples.

Results

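Upk1a, Upk1b, Ces1d, Cyp2f2 and Nxpe2 are 5 of the 17896 genes measured in single cells of the mouse ventral prostate. They are 2 uroplakin genes and 3 genes grouped with them because earlier results of the same data showed them lower in te2 cells that resemble the epithelium near the urethra. The members were taken as the rows with these symbols, and all 5 are listed in all 4 tables. Because that difference chose them, their levels in the proximal class are given below as a description, with no test.

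The libraries came from C57BL6j wild-type mice that received pellets and whose ventral prostates were collected 2 weeks later, with 2 mice in the sham group and 2 in the group coded te2. The sources used here do not spell out te2 or say what the sham pellets held. Each library is 1 animal, its lobes pooled in 1 tube, profiled at the 3' end of transcripts with unique molecular identifiers (UMIs). The p-values given here speak only for these few animals. The test behind them borrows its estimate of spread from all genes and gives more weight to libraries with more counts. They are thus not a direct measure of the spread between the 2 animals of a group.

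Uroplakins 1a and 1b are tetraspanins, proteins that cross the membrane several times, and they pair with uroplakins 2 and 3 in the plaques that seal the surface of the bladder lining. The prostate ducts open into the urethra, and the duct epithelium closest to it differs from the secretory epithelium of the distal gland in its keratins and secreted proteins. Cyp2f2 encodes a cytochrome P450 best known from the club cells of the airway, Ces1d a carboxylesterase that cleaves esters of lipids and drugs, and Nxpe2 a protein of the neurexophilin and PC-esterase domain family.

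Summed over genes, the sham tables came to 3999690 and 5513275 UMIs and the te2 tables to 12259610 and 13134017, and 1638, 2017, 2324 and 2112 cells were kept, in the same order. Cells took the first class they met: luminal (Sbp and Spink1 at least 10% of UMIs), basal (Krt5, Krt14 and Krt15 at least 0.2%), fibroblast (Col1a2, Col3a1 and Dcn at least 0.3%) and proximal (Krt4, Wfdc2 and Cxcl17 at least 0.1%). The proximal class held 35 and 170 sham cells and 640 and 377 te2 cells, with median depths of 1849, 1643, 5114.5 and 6582 UMIs. It detected 8 to 10 of 10 proximal luminal markers in each library, 3 of which are the gate genes, with a summed level of 5356 to 6725 CPM (CPM is a count scaled to a total of 1000000 UMIs). Of 7 urothelial markers, 0 to 3 were detected per library, at 0.00 and 28.2 CPM in sham and 2.19 and 1.09 in te2, with Upk3a, Upk3b and Krt20 at 0 in all 4. Markers that define the lining of the bladder were thus at or near 0. Transcripts of Sbp and Spink1 in cells outside the luminal class, which can come from free RNA, had a median share of 2.99% and 3.34% in sham and 0.195% and 0.379% in te2, and their part in the results was not tested. Of the cell barcodes, 15 were shared between libraries.

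Promoter sequences were at hand for 3 members, Upk1a, Cyp2f2 and Nxpe2, and are shown because these members were lower together in te2 proximal cells. They run 5' to 3' on the gene's strand from 250 bases before the start site to 50 after it, from RefSeq on GRCm38.p6. Upk1a lies at chr7:30612685-30612984 on the minus strand, Cyp2f2 at chr7:27119705-27120004 on the plus strand and Nxpe2 at chr9:48340849-48341148 on the minus strand. Capitals mark the matches, on either strand, to AGAACA (the half-site of the androgen and glucocorticoid receptors), AGGTCA (the half-site of many nuclear receptors) and CCACCC (the core bound by KLF factors).
Upk1a: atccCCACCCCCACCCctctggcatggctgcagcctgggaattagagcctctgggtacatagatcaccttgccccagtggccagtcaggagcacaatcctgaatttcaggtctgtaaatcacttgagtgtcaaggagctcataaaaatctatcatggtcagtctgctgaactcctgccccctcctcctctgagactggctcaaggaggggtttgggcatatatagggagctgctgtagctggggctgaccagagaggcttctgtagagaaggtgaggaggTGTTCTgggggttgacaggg
Cyp2f2: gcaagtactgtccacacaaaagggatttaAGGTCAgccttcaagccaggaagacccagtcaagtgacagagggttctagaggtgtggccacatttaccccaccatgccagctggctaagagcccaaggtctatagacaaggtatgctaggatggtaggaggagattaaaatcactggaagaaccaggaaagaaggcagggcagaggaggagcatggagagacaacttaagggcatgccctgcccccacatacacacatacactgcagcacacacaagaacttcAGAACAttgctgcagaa
Nxpe2: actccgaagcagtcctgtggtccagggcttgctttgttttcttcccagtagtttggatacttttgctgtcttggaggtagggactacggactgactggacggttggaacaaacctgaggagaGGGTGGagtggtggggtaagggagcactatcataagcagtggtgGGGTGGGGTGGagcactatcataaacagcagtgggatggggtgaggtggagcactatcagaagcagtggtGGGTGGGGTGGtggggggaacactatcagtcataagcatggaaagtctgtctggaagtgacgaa
AGAACA occurred once in Upk1a, on the opposite strand, and once in Cyp2f2, in both after the start site, and it is in 19.0% of 32851 promoters of this length. AGGTCA occurred once in Cyp2f2 and is in 16.3% of promoters. CCACCC occurred 2 times in Upk1a and 5 times in Nxpe2 and is in 31.5%. The other motifs searched had no match in these windows. The core bound by GATA factors, AGATAA, is in 11.2% of all promoters. The grainyhead core, AACCGG, is in 6.83%. The forkhead core, GTAAACA, is in 3.65%. The letters TATAAA, bound by the general transcription machinery, are in 13.6%. None of the searched motifs was shared by all 3 windows.

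Upk1a, the uroplakin with the most counts here, stood at 541 and 530 CPM in sham proximal cells and at 72.6 and 75.8 CPM in te2 (levels scaled by the total counts of the class). The groups did not overlap, and the sham mean of 536 ± 7.75 CPM was 7.22-fold the te2 mean of 74.2 ± 2.24 (SD, n = 2). In sham the proximal class had the highest level in both libraries. Luminal cells (269 and 280 CPM) and cells of no class (213 and 434) overlapped each other, and basal cells (0.00 and 32.7) and fibroblasts (15.4 and 0.00) were lowest and overlapped too. In te2 that order differed: cells of no class (104 and 109) and luminal cells (102 and 90.4) both lay above the proximal class.

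The luminal class held most Upk1a transcripts of the sham libraries, with 799 of 924 UMIs in replicate 1 and 1073 of 1526 in replicate 2. In te2 it held 338 of 942 and 447 of 1005. In CPM, luminal Upk1a was 2.86-fold higher in sham than in te2, and the libraries did not overlap. How many of all genes did so in this class was not counted. Both te2 libraries also lay below both sham libraries in luminal cells split by the Sbp and Spink1 share. At 10 to 15% Upk1a was 416 and 387 CPM in sham against 145 and 93.9 in te2, and above 40% it was 221 and 212 against 61.7 and 80.3.

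Upk1b, the second tetraspanin uroplakin, stood at 149 and 136 CPM in sham proximal cells and at 9.02 and 12.0 in te2, from 11, 53, 37 and 33 UMIs. The groups did not overlap, and the means differed 13.5-fold. Its levels were lower in sham cells of no class (42.1 and 45.2 CPM) and lower again in luminal cells (17.2 and 14.4), while fibroblasts had 0 UMIs in all 4 libraries. In luminal cells it was 3.01 and 4.45 CPM in te2, 4.23-fold below sham.

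The partner uroplakins were nearly missing. Upk2 had 4, 3 and 4 UMIs in the 3 tables that list it, with 1 and 2 UMIs in the te2 proximal cells and 0 in sham. Upk3a, Upk3b and Upk3bl are in no table, so none of these 4 genes could be tested.

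Ces1d had the largest proximal ratio of the 5 and the fewest counts. It stood at 176 and 115 CPM in sham and at 5.61 and 4.37 in te2, from 13, 45, 23 and 12 UMIs. The groups did not overlap, and the sham mean was 29.2-fold the te2 mean. The neighbouring esterase genes Ces1e and Ces1f had 0 and 9 UMIs in all proximal cells, and reads that match several such paralogs may have been split between them, a step not given in the sources used here. In te2 replicate 2, 7 of its 43 UMIs lay in 1 fibroblast-class cell.

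Cyp2f2 stood at 1325 and 1680 CPM in sham proximal cells and at 454 and 426 in te2. The groups did not overlap, and the means (1503 ± 251 and 440 ± 19.7 CPM, SD, n = 2) differed 3.42-fold. In sham the proximal class was above basal cells (221 and 458 CPM). In te2 basal cells, at 552 and 497 CPM, were above the proximal class. The basal levels of the groups did not overlap, but the lower sham value rests on 10 UMIs in 44 cells. In luminal cells Cyp2f2 was low and on the other side, at 16.5 and 20.4 CPM in sham and 62.5 and 43.1 in te2. Fibroblasts had 0.00 to 49.1 CPM.

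Nxpe2 stood at 541 and 630 CPM in sham proximal cells and at 217 and 226 in te2. The groups did not overlap, and the means (585 ± 62.9 and 221 ± 6.38 CPM) differed 2.64-fold, the smallest of the 5 ratios. Cells of no class came next in both groups, at 184 and 259 CPM in sham and 153 and 149 in te2. In luminal cells it was 13.5 and 13.6 CPM in sham and 48.7 and 46.1 in te2, and in basal cells 0.00 and 27.3 against 51.7 and 45.7. All 5 members thus had groups that did not overlap in the proximal class, the comparison that chose them. There, 26.7% of 10074 genes had each te2 library below each sham library, and 10.7% passed edgeR's quasi-likelihood test in either direction. Cyp2f2 and Nxpe2 were higher in te2 over all luminal and all basal cells, where the share of all genes doing so was not counted. Over all kept cells, 49.7% of 14029 genes had both te2 libraries above both sham libraries. The 2 genes were not higher in every part of the luminal class. Above 40% Sbp and Spink1 the groups overlapped, with Cyp2f2 at 3.52 and 13.4 CPM in sham and 14.9 and 8.12 in te2, and Nxpe2 at 7.03 and 1.49 against 6.38 and 5.41. The 10 proximal luminal markers summed were also higher in te2, at 308 and 329 against 2384 and 2459 CPM in luminal cells and 309 and 911 against 2678 and 2373 in basal cells, and their part in the result was not tested.

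**Figure D1:**
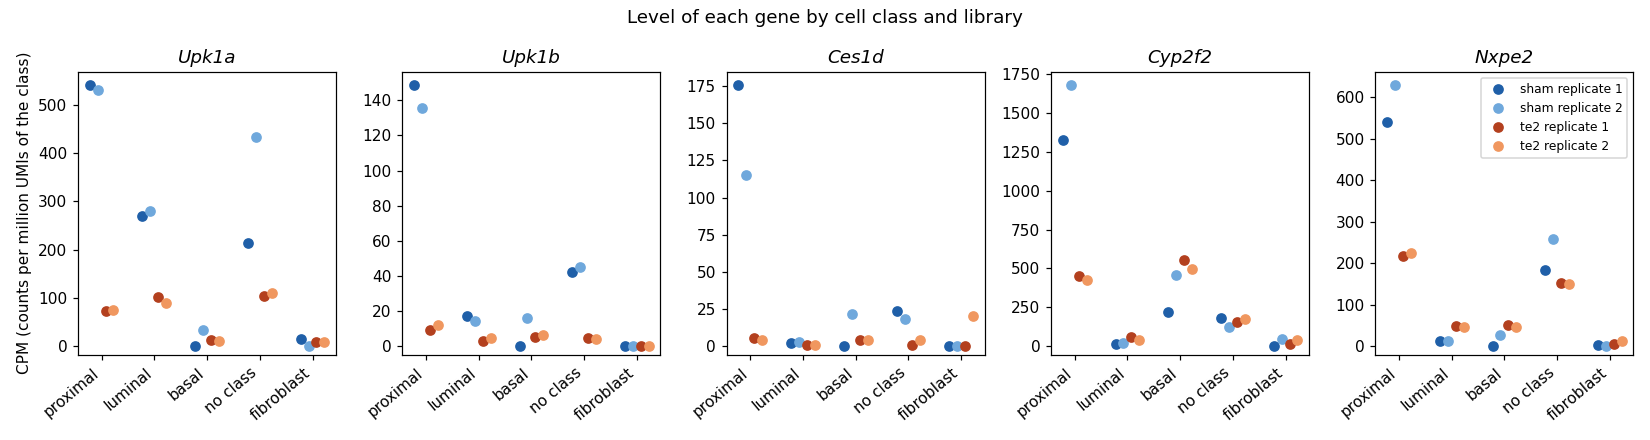
Level of each gene in CPM (linear axis, scaled by the UMIs of the class) in the proximal, luminal, basal, unassigned and fibroblast classes, 1 point per library. Sham proximal points lie above te2 for every gene, while Cyp2f2 and Nxpe2 are higher in te2 in luminal and basal cells.

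Over all kept cells the 5 genes did not share a direction. Upk1a was 248 and 302 CPM in sham and 79.0 and 78.8 in te2, and Upk1b 20.9 and 26.9 against 5.71 and 6.12. Ces1d was 7.77 and 13.8 CPM in sham and 2.94 and 3.37 in te2. These 3 were lower in te2 without overlap, by 3.43-fold to 4.04-fold. Cyp2f2 was higher in te2, at 281 and 217 CPM against 60.3 and 176, and so was Nxpe2, at 130 and 108 against 40.5 and 88.2. Of 14029 genes in that comparison, 17.7% had both te2 libraries below sham without overlap and 49.7% had both above it, and 20.7% passed edgeR's test. Those lower in te2 were 8.62% (1209 genes) and those higher 12.0% (1690), and without TMM factors the numbers were 695 and 3436.

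The class sizes differed between the groups at the same time. Proximal cells made up 2.14% and 8.43% of kept cells in sham and 27.5% and 17.9% in te2. When the te2 class levels were weighted by the sham share of UMIs in each class, Cyp2f2 came to 93.6 CPM, below the sham value of 118, and Nxpe2 to 65.1 CPM beside 64.3. Upk1a came to 90.1 CPM beside 275 in sham. Under the sham mix of classes, the te2 values of Cyp2f2 and Nxpe2 were therefore no longer well above sham, and Upk1a was still lower. The reverse weighting, sham levels at te2 class shares, gave 507 CPM for Cyp2f2, 222 for Nxpe2 and 319 for Upk1a.

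**Figure D2:**
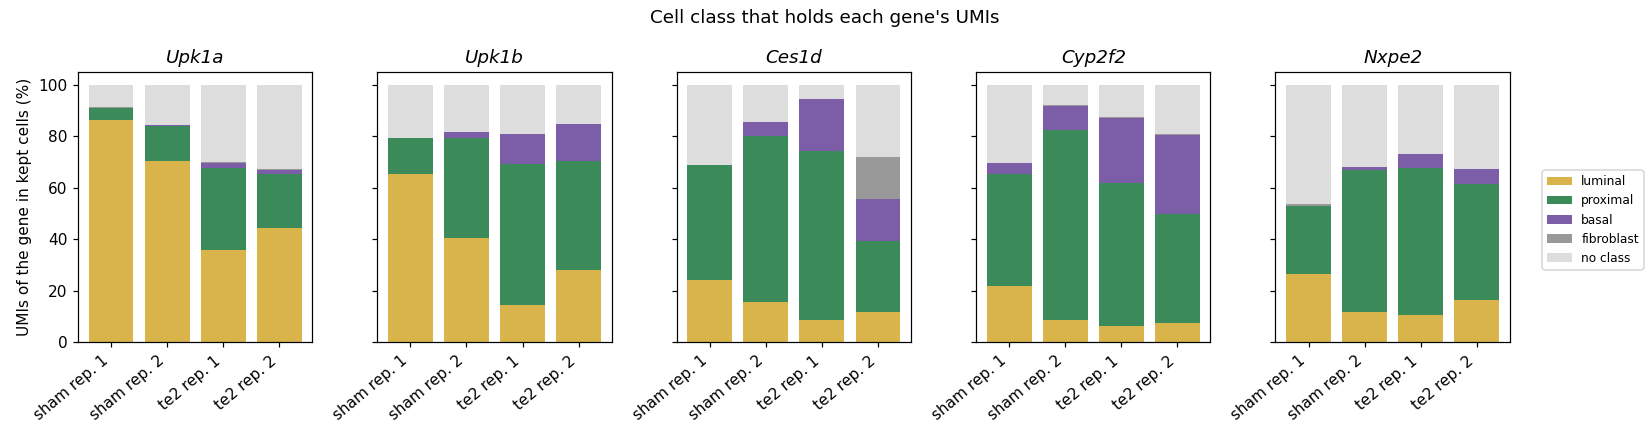
Share (%) of each gene's UMIs in kept cells that lay in each class, 1 bar per library. The luminal class held 86.5% and 70.3% of Upk1a UMIs in sham and 35.9% and 44.5% in te2, while basal cells held 25.5% and 30.6% of Cyp2f2 UMIs in te2.

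Whether the lower proximal levels came with fewer positive cells or a lower level per cell was examined after every cell was thinned to 1000 UMIs, which left 25 and 130 sham cells and 580 and 351 te2 cells and left out 10, 40, 60 and 26. Without thinning, with te2 cells deeper, Cyp2f2 had a UMI in 60.0% and 70.6% of sham cells and in 71.6% and 70.8% of te2 cells. At equal depth it had one in 52.0% (95% exact binomial interval 31.3 to 72.2%) and 58.5% (49.5 to 67.0%) of sham cells and in 37.9% (34.0 to 42.0%) and 29.9% (25.2 to 35.0%) of te2 cells. The positive cells themselves held 1.85 and 2.63 UMIs on average in sham and 1.28 and 1.46 in te2. Cells with 3 or more Cyp2f2 UMIs made up 12.0% and 23.8% in sham and 1.21% and 1.99% in te2. For Cyp2f2 both quantities were thus lower in te2. On the log2 scale, the level per cell differed by -1.44, the share of positive cells by -0.70 and the UMIs per positive cell by -0.71.

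For the other 4 genes the share differed more than the UMIs per positive cell did. The latter cannot be below 1, and in sham it stood at 1.27 for Upk1a, 1.03 for Upk1b, 1.08 for Ces1d and 1.72 for Nxpe2. It could thus not have fallen as much as the share did in any of these genes. Upk1a was positive in 48.0% (27.8 to 68.7%) and 42.3% (33.7 to 51.3%) of sham cells and in 7.59% (5.57 to 10.1%) and 7.98% (5.37 to 11.3%) of te2 cells. Its log2 differences were -2.81 for the level, -2.54 for the share and -0.27 for the UMIs per positive cell. Upk1b was positive in 8% and 12.3% against 0.690% and 1.42%, and Ces1d in 24.0% and 10.0% against 0.345% and 0.570%, the te2 values resting on 4, 5, 2 and 2 cells. Nxpe2 was positive in 32.0% and 31.5% of sham cells and 15.9% and 16.8% of te2 cells, with log2 differences of -1.27 for the level, -0.96 for the share and -0.31 per positive cell.

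At so few UMIs a lower level in every cell also lowers the share of positive cells, so the observed shares were set beside those that the mean level would give if it were the same in every cell (the Poisson share). For Upk1a the observed sham shares of 48.0% and 42.3% lay beside 45.1% and 42.1%, and the te2 shares of 7.59% and 7.98% beside 7.78% and 7.93%. The Upk1a counts therefore do not separate fewer expressing cells from a lower even level. Nor do those of Upk1b and Ces1d, whose even-level shares lay inside the 95% intervals in every library. For Cyp2f2 the sham shares of 52.0% and 58.5% were under the even-level shares of 61.7% and 78.5%, and in replicate 2 the even-level share lay outside the 95% interval. In te2 the observed shares were 37.9% and 29.9% beside 38.4% and 35.3%, and in replicate 2 the even-level share again lay outside the interval. Nxpe2 was under its even-level share in both groups, with 32.0% and 31.5% beside 42.9% and 41.2% in sham and 15.9% and 16.8% beside 20.5% and 19.9% in te2. The even-level share lay outside the interval in sham replicate 2 (23.7 to 40.3%) and te2 replicate 1 (13.0 to 19.1%).

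Deeper cells give a second look at te2. Thinned to 4000 UMIs, 75.1% and 67.5% of 414 and 271 te2 proximal cells held Cyp2f2, 38.6% and 40.2% held Nxpe2 and 20.3% and 22.1% held Upk1a. Most te2 proximal cells of that depth thus still had a Cyp2f2 transcript. Sham had 3 and 24 cells at this depth, too few to compare, and 22 of the 24 held Cyp2f2.

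Fibroblasts served as the class that should lack these genes. Thinned to 1000 UMIs (117 and 43 sham cells of median depth 1322 and 1283 before thinning, and 73 and 107 te2 cells of 2595 and 2802), they held Cyp2f2 in 0.00% and 0.00% in sham and 4.11% and 4.67% in te2. The proximal cells had medians of 2034 and 2191 in sham and 5514 and 6829 in te2. The proximal Cyp2f2 shares were all above these. Luminal cells held Cyp2f2 in 1.84% and 2.17% in sham and 6.22% and 3.70% in te2, so the te2 luminal shares overlapped those of te2 fibroblasts. Upk1b was found in 0 fibroblasts of any library, which allows a share of up to 2.56% in the largest group. Ces1d was in 0 of the 73 fibroblasts of te2 replicate 1, which allows up to 4.11%, and in 1 of the 107 of te2 replicate 2, the cell that held 7 UMIs before thinning. At this depth the fibroblasts do not set a background below the te2 proximal shares of Upk1b (0.690% and 1.42%) or Ces1d. Upk1a was in 2.56% and 0.00% of sham fibroblasts and in 0.00% and 0.00% of te2 fibroblasts.

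**Figure D3:**
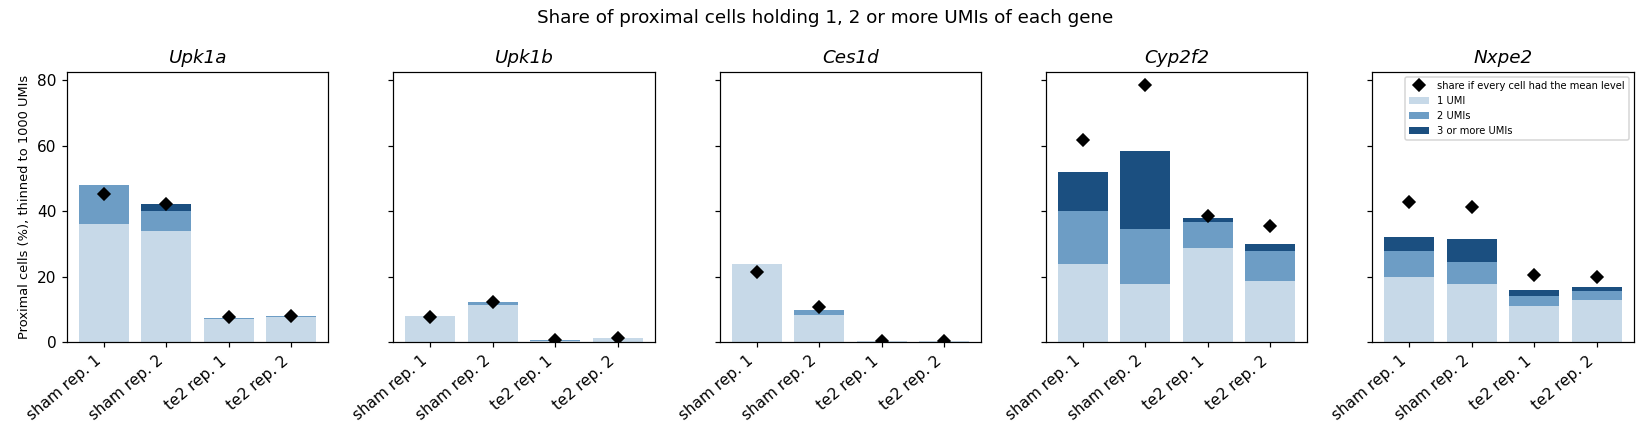
Share (%) of proximal cells that held 1, 2 or at least 3 UMIs of each gene after thinning to 1000 UMIs, 1 stacked bar per library, with diamonds at the share expected if every cell had the library's mean level. Diamonds sit on the Upk1a bars and above the sham bars of Cyp2f2 and Nxpe2.

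In sham proximal cells Nxpe2 was found less often with each other member, while the other members were found together more often. Among sham proximal cells thinned to 1000 UMIs, Cyp2f2 was positive in 49.0% of the 49 cells with Nxpe2 and in 61.3% of the 106 without it. Upk1a was positive in 36.7% of cells with Nxpe2 and 46.2% of cells without. Pairs without Nxpe2 went the other way. Upk1a was positive in 48.3% of the 89 Cyp2f2-positive cells and 36.4% of the other 66, and in 57.9% of the 19 cells with Ces1d and 41.2% of those without. Cyp2f2 was positive in 72.2% of the 18 cells with Upk1b and 55.5% of those without. At this depth transcripts are often missed, so these shares do not show whether the members mark one set of cells. These are cells of 2 animals and are given as a description.

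Cells with at least 2 UMIs of the 5 genes together, counted after thinning to 500 UMIs, made up 12 of 35 and 56 of 170 sham proximal cells (34.3% and 32.9%) and 53 of 640 and 27 of 377 te2 cells (8.28% and 7.16%). The groups did not overlap, but these are the genes and the class of the comparison that chose the members. A lower te2 share was thus built in, and no other set of genes was counted in this way. Over all kept cells without a class the shares were 2.75% and 5.35% in sham and 4.48% and 3.69% in te2, which overlap. In sham, 35.6% and 24.1% of these carrier cells were luminal, and in te2 2.88% and 3.85%. Basal cells made up 4.44% and 8.33% of sham carriers and 29.8% and 44.9% of te2 carriers. Proximal cells made up 26.7% and 51.9% in sham and 51.0% and 34.6% in te2, which overlap.

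The gate takes in cells led by different genes, and the members differed between them. Cells in which Wfdc2 (a secreted protease inhibitor of duct epithelium) had the most UMIs of the 3 gate genes made up 40.0% and 38.2% of proximal cells in sham and 61.7% and 51.5% in te2, while those led by Krt4 (a keratin of stratified mucosa) made up 17.1% and 9.41% against 1.72% and 1.59% (6, 16, 11 and 6 cells). Cyp2f2 was highest in Wfdc2-led sham cells, at 1925 and 2569 CPM, and stood at 533 and 597 there in te2. Nxpe2 was lowest in those sham cells, at 107 and 275 CPM, and overlapped with te2 at 206 and 171. In cells led by Krt4 or Cxcl17 (a mucosal chemokine) Nxpe2 differed by -1.71 on the log2 scale (te2 over sham). In Wfdc2-led cells it differed by 0.037. These 2 values are scaled by TMM-adjusted totals, unlike the CPM of this paragraph, and the sign of 0.037 is not read as a rise. The difference between them was not tested. At the sham mix of leading genes, te2 Nxpe2 came to 292 CPM in place of 221, and te2 Cyp2f2 to 424 in place of 440. Upk1a, Upk1b, Ces1d and Cyp2f2 had each te2 library below each sham library under all 3 leading genes, and Nxpe2 under Cxcl17 alone. These groups of cells are parts of the comparison that chose the members, and the share of all genes doing so was not counted.

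**Figure D4:**
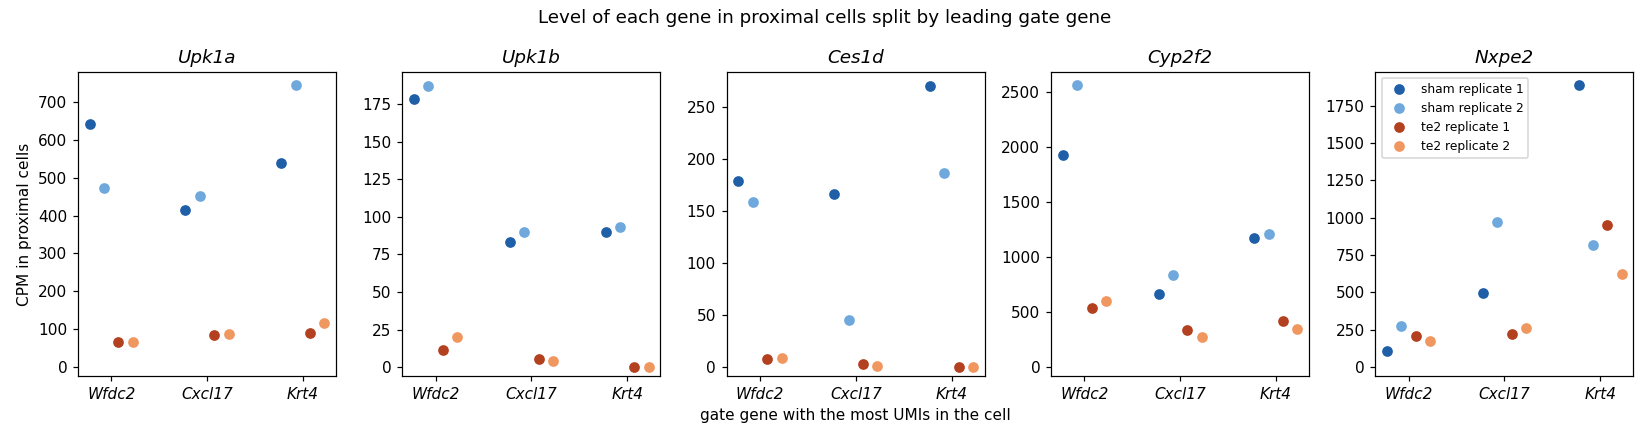
Level in CPM (linear axis) in proximal cells grouped by the gate gene with the most UMIs in the cell, 1 point per library; cells with a tie are left out. Cyp2f2 is highest in Wfdc2-led sham cells (1925 and 2569 CPM), where Nxpe2 overlaps between the groups.

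The differences were also present among cells of like depth. In each of the 3 bins of UMIs per cell with at least 5 cells in every library, Upk1a, Cyp2f2 and Nxpe2 had each te2 library below each sham library, and Upk1b and Ces1d did in 2 of 3. The bins are parts of the comparison that chose the members, and the share of all genes doing so was not counted. Sham replicate 1 had 10, 11 and 11 cells in these bins, with 0 to 8 UMIs of Upk1b or Ces1d. From 1000 to 2000 UMIs, Cyp2f2 was 769 and 1799 CPM in sham and 437 and 202 in te2, and from 2000 to 4000 it was 1388 and 1523 against 515 and 567. Just inside the proximal cut (0.1 to 0.2% gate genes) Upk1a was 463 and 646 CPM in sham and 101 and 70.2 in te2. Just outside it (above 0 and under 0.1%) Upk1a was 826 and 562 against 132 and 124, and Cyp2f2 was 571 and 218 against 210 and 203. In cells with 0% gate genes Upk1a was 82.9 and 375 CPM against 48.0 and 62.9, while Cyp2f2 overlapped at 95.6 and 81.9 against 46.9 and 86.2.

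**Figure D5:**
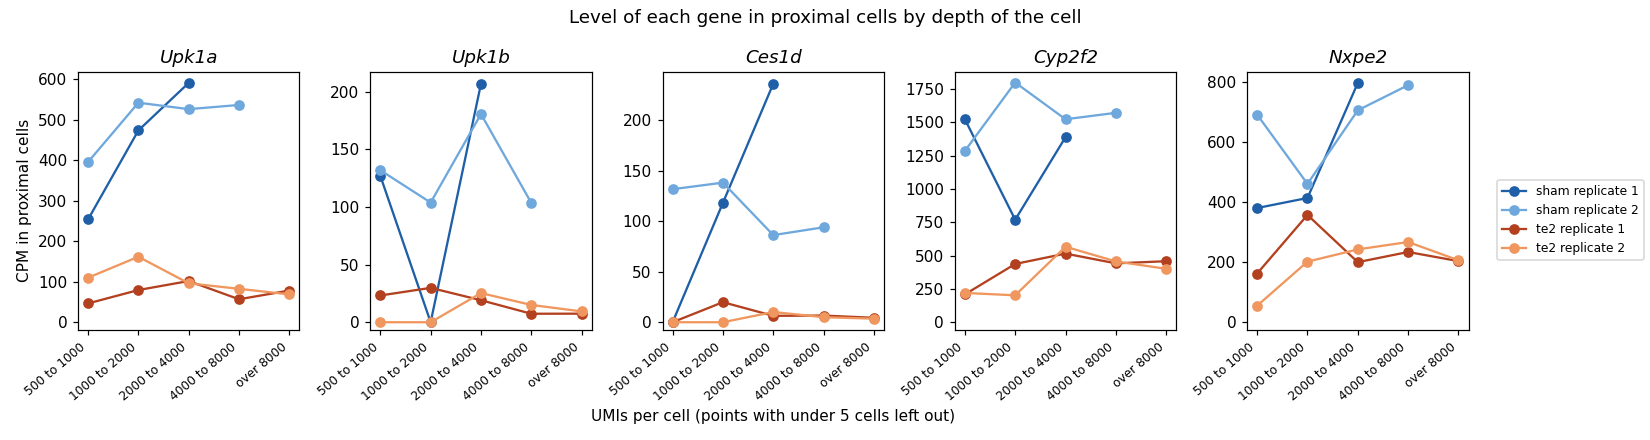
Level in CPM (linear axis) in proximal cells against the UMIs of the cell in 5 bins, 1 line per library; points with fewer than 5 cells are left out. Upk1a, Cyp2f2 and Nxpe2 stay lower in te2 in every bin where all 4 libraries have a point.

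Across 20 sums of cells (5 classes including cells of no class, 4 libraries) the log2(CPM + 1) of the members was correlated as a description, since sums of 1 library share their depth. Upk1b went with Upk1a (Pearson r = 0.83), Nxpe2 with Upk1a (0.81) and Ces1d with Upk1b (0.81), while Cyp2f2 and Upk1a were least alike (0.22). Among 13369 genes, the most like Upk1a was Naip6 (0.99), a sensor of bacterial proteins. The most like Upk1b was Foxred2 (0.94), the most like Ces1d was the carbonic anhydrase gene Car2 (0.88), which also came second for Upk1b (0.92), the most like Cyp2f2 was Slc66a2 (0.91) and the most like Nxpe2 was Tstd1 (0.96).

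The other genes of these pathways were tested by edgeR's quasi-likelihood test on proximal counts summed per library, where 4.96% of genes passed a false discovery rate of 0.05 lower in te2 and 5.76% higher, with a median log2 change of 0.06 over all genes. Levels of these genes are scaled by TMM-adjusted totals. All 5 members passed the filter on low counts, which can be met by 1 group alone. Ces1d, at 5.61 and 4.37 CPM in te2, met it through its sham libraries.

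Of 23 genes chosen for the epithelium near the urethra, 16 were tested, 6 fell and 5 rose, and the median was -0.25. Igfbp5, which encodes a binder of insulin-like growth factors, fell from 191 and 465 CPM to 58.8 and 52.9 (log2 change -2.79 ± 0.20 SE, adjusted p = 3.65e-27). The transcription factor gene Meis2 fell from 167 and 293 CPM to 40.4 and 33.3 (-2.81 ± 0.22, 2.71e-23). Without sham replicate 2 these changes were -1.71 (0.00942) and -2.12 (0.0052). Car2 fell from 108 and 553 CPM to 27.3 and 30.6 (-3.88 ± 0.21, 4.78e-37), and without sham replicate 2 the change was -1.84 with an adjusted p of 0.0524. Psca, a surface antigen of the prostate and stomach, rose from 0.00 and 60.2 CPM to 634 and 509 (3.58 ± 0.31, 1.18e-19), and all 22 of its sham UMIs lay in replicate 2, so that without this library the sham level is 0. Genes of the near-urethral list thus moved both ways. Car2, Igfbp5, Meis2 and Psca were known from earlier results of these data and are not independent evidence of direction.

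Of 26 urothelial differentiation genes, 11 were tested, 2 fell and 1 rose, with a median of 0.22. The keratin gene Krt19, also a marker of proximal luminal cells, rose from 132 and 320 CPM to 569 and 744 (1.30 ± 0.24, adjusted p = 1.38e-05; 0.0763 without te2 replicate 2). The simple-epithelium keratin gene Krt8 (-0.69 ± 0.23, 0.0367) and the transcription factor gene Gata3 (-0.66 ± 0.21, 0.0221) fell. Both calls were lost without sham replicate 2, te2 replicate 1 or te2 replicate 2, and under other alternatives too. Over all alternatives the Krt8 call was kept in 8 and lost in 9, and the Gata3 call was kept in 5 and lost in 12. With a library left out the log2 change was -0.76 to -0.57 for Krt8 and -0.73 to -0.29 for Gata3.

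Among 43 genes of xenobiotic metabolism, the process to which P450 enzymes such as Cyp2f2 belong, 22 were tested, 5 fell and 3 rose, with a median of -0.40. The glutathione transferase genes Gstm1 (-1.13 ± 0.20, adjusted p = 3.46e-06) and Gstt1 (-1.33 ± 0.25, 1.82e-05) fell, while Gsto1 (1.77 ± 0.25, 3.78e-09) and the retinal dehydrogenase gene Aldh1a1 (1.30 ± 0.24, 1.44e-05) rose. Gsto1 went from 108 and 153 CPM in sham to 486 and 481 in te2. Without sham replicate 2 the calls of Gstm1 (-0.49, adjusted p = 0.582) and Gstt1 (-0.89, 0.449) were lost, and that of Gstm1 also without te2 replicate 2 (-0.80, 0.36).

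Of 25 carboxylesterase and lipase genes, 5 were tested, 2 rose and 1 fell. The lysosomal lipase gene Lipa had 0 UMIs in sham and 79 in te2, at least 1.79-fold higher against a floor of 3 counts over the sham libraries, and Ces2g had 1 and 123, a ratio of 8.34 (95% interval 1.47 to 332, counting error only). Both calls were lost without either sham replicate. Over the alternatives that gave a value, the Lipa call was kept in 3 and lost in 5, and the Ces2g call was kept in 2 and lost in 9. The hormone-sensitive lipase gene Lipe fell by 1.39 on the log2 scale (SE 0.23, adjusted p = 6.58e-07), and without sham replicate 2 it was -0.25 (0.849).

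Among 26 tetraspanin genes, the superfamily of Upk1a and Upk1b, 17 were tested, 2 fell and 2 rose, with a median of -0.06. Tspan33 fell from a mean of 122 ± 13.7 CPM to 30.1 ± 3.49 (SD, n = 2; -1.94 ± 0.29, adjusted p = 5.23e-08), and Tspan12 fell too (-1.38 ± 0.31, 0.000549; 0.632 without sham replicate 2 and 0.0552 without te2 replicate 1). Tspan3 (1.15 ± 0.23, 6.69e-05) and Cd9 (0.87 ± 0.23, 0.00417) rose. The Tspan3 call was lost without te2 replicate 2, and the Cd9 call without sham replicate 2 or either te2 replicate. Over all alternatives the Cd9 call was kept in 9 and lost in 8. Of the 4 other Nxpe genes 1 was tested, Nxpe4, the neighbour of Nxpe2, at 0.53 ± 0.25 (adjusted p = 0.183). With DESeq2 the calls of Gata3 (adjusted p = 0.377), Gstm1 (0.129), Lipe (0.127) and Tspan12 (0.103) were lost.

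Other neighbours of the members on the chromosome were named by position alone. Igsf11, next but one to Upk1b, fell (-2.07 ± 0.39, adjusted p = 1.84e-05), as did Arhgap31 on its other side (-1.47 ± 0.42, 0.00929), while B4galt4 between Arhgap31 and Upk1b was at -0.27 ± 0.46 (0.788). Rexo2, next to Nxpe2, rose (1.41 ± 0.29, 9.82e-05). Cox6b1, next to Upk1a, was at -0.25 ± 0.24 (0.58) and Egln2, near Cyp2f2, at 0.27 ± 0.29 (0.644).

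In the carrier cells of all classes, where 11.0% of 5282 genes passed (5.66% lower and 5.3% higher in te2; 280 higher and 299 lower, and 499 and 125 without TMM factors), Ly6a, a surface protein of the near-urethral list, rose from 106 ± 28.3 to 586 ± 85.3 CPM (SD, n = 2; 2.36 ± 0.28, adjusted p = 3.23e-09). Psca (2.72 ± 0.34, 1.59e-08), Krt19 (1.24 ± 0.26, 0.00054), Gsto1 (1.94 ± 0.29, 1.28e-06) and Cd9 (1.72 ± 0.25, 9.87e-07) also rose. Krt8 (-1.05 ± 0.22, 0.000721), Gstm1 (-1.27 ± 0.24, 0.000124; 0.458 without sham replicate 2), Lipe (-1.28 ± 0.30, 0.00233; 0.471 without sham replicate 2 and 0.114 without te2 replicate 2) and Tspan13 (-1.32 ± 0.23, 2.75e-05) fell. DESeq2 did not call Psca (adjusted p = 0.582), Gstm1 (0.0804) or Lipe (0.177). Without sham replicate 2, which held all 29 sham UMIs of Psca in carriers, Gsto1 was 3.55 and Krt19 2.18. The luminal and basal shares of the carriers given above differed between the groups at the same time, and their part in these changes was not tested. Within sham proximal cells, the genes with the highest ratio of carriers to other cells were Ccnd1, a cyclin of the G1 phase (340 against 126 CPM in replicate 1 and 359 against 92.6 in replicate 2), Srrm1, Ubxn4, Meis2 and Cpd.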

How the data were processed

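Per the labels' protocols, each library was made from the ventral prostate of 1 mouse, with 7000 cells loaded on a 3' single-cell kit. The authors deposited raw UMI counts per gene and cell. The submitters' processing notes name GRCm39 as the build and, with no role stated, Seurat 5.0.1, R 4.3.2, bustools 0.39.4 and kallisto 0.46.1. A gene missing from a table was entered as 0. Cells with at least 500 UMIs and at most 20% mitochondrial counts were kept (8091 of 11245), and of these scrublet in scanpy 1.11.5 called 97 (1.20%) doublets, which were kept in the main analysis and left out in an alternative.

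The groups were compared on class sums, 1 per library, by the two-sided quasi-likelihood test of edgeR 4.0.16 with TMM factors, filterByExpr and Benjamini-Hochberg adjustment (FDR 0.05), with DESeq2 1.42.0 as an alternative. The edgeR step was also run on simulated counts with known changes, with the same spread set for all genes. Its outcome is not given here. Only genes of higher expected counts were changed, so the check does not cover genes with few counts. Cells were thinned without replacement to 500, 1000 or 4000 UMIs, and shallower cells were left out. Carriers were counted at 500. Intervals and floors (3 counts) cover counting error only. Errors of log2 changes are standard errors worked back from the log2 change and the statistic of the test, not spreads observed between animals.

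The members and gene lists were chosen with earlier results of these data known. Named list genes are up to 4 per list of smallest p past the threshold in proximal sums and up to 2 in carrier sums. Like genes are the 3 of highest correlation among genes with at least 50 UMIs, of which the first is named, and the carrier genes are from the 10 of highest ratio, the lower of the 2 sham libraries, of which 5 are named. Same-numbered replicates did not deviate together (correlation 0.01 over proximal sums, where sham replicate 1 had 35 cells, and -0.02 over whole libraries). Values near 0 cannot exclude that the numbers pair the animals. Alternatives were DESeq2, totals without TMM, no filter, a replicate block, no doublets, thinned sums, other gates and depths, other carrier cuts and each library left out. The reference genome is of an earlier build, so no coordinates but those of the RefSeq promoters are given.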

Additional observations from a re-analysis of the deposited data

Results flagged for a closer look

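Cyp2f2 and Nxpe2 moved in opposite directions in different classes, with every te2 library on one side of every sham library in each. In the proximal class, the comparison that chose the members, 26.7% of 10074 genes had each te2 library below each sham library. The share of all genes without overlap was not counted in the luminal and basal classes. Over all kept cells, 49.7% of 14029 genes had both te2 libraries above both sham libraries. The log2 ratio of te2 over sham for Cyp2f2 was -1.77 in the proximal class, 1.52 in the luminal class and 0.63 in the basal class. For Nxpe2 it was -1.40 in the proximal class, 1.81 in the luminal class and 1.84 in the basal class. The difference between classes was not tested. Sham basal values rest on 10 and 84 UMIs of Cyp2f2 and 0 and 5 of Nxpe2. In luminal cells above 40% Sbp and Spink1 both genes overlapped between the groups. Thinned to 1000 UMIs, Cyp2f2 was in 6.22% and 3.70% of te2 luminal cells beside 4.11% and 4.67% of te2 fibroblasts, which overlap. Without thinning it was at 62.5 and 43.1 CPM beside 14.3 and 37.8. The part of free RNA in the luminal values was not tested. The summed proximal luminal markers were also higher in te2, at 2384 and 2459 CPM beside 308 and 329 in luminal cells and 2678 and 2373 beside 309 and 911 in basal cells, and their part in the result was not tested.

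Barcodes with fewer than 500 UMIs, which no comparison used, also held both genes at a higher level in te2. Cyp2f2 was at 180 and 112 CPM in the te2 libraries and at 25.8 and 86.4 in sham, and Nxpe2 at 106 and 63.2 against 30.1 and 32.4. These values rest on 41, 23, 6 and 32 UMIs of Cyp2f2 and 24, 13, 7 and 12 of Nxpe2.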

How the results depend on the processing

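Directions of the member changes in the proximal class (main log2 values -2.74 for Upk1a, -3.64 for Upk1b, -4.73 for Ces1d, -1.68 for Cyp2f2 and -1.30 for Nxpe2, TMM-scaled) were kept under every alternative run for them (not DESeq2, thinned sums or no filter), except that Nxpe2 was 0.037 in cells led by Wfdc2. Limits are the 35 proximal cells of sham replicate 1, the low counts of Upk1b and Ces1d, and classes set by thresholds. A 0.2% proximal cut gave -3.34 for Upk1b, -4.35 for Ces1d and -0.75 for Nxpe2, and a gate without Wfdc2 gave -4.25 for Upk1b and -5.68 for Ces1d. Alternatives added after the data were seen gave, in cells led by Wfdc2, -4.19 for Ces1d, in cells led by Krt4 or Cxcl17 -2.32 for Upk1a, -4.07 for Upk1b, -6.06 for Ces1d and -1.71 for Nxpe2, and in cells of 1000 to 4000 UMIs -2.50 for Upk1a, -2.76 for Upk1b and -4.08 for Ces1d. With each library left out, Upk1a lay between -2.84 and -2.56, Upk1b between -3.86 and -3.46, Ces1d between -4.94 and -4.53, Cyp2f2 between -1.93 and -1.28 and Nxpe2 between -1.51 and -0.98. The lone library left in a group was then assumed to vary like the others.

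The carrier share in the proximal class (-2.12) was -2.30 without Wfdc2 in the gate, -1.15 and -3.44 with at least 1 or 3 UMIs, -1.90 at 1000 UMIs, 0.012 over all kept cells with no gate, and -2.23 to -2.02 with a library left out. The level of a member in carriers of the others moved with at least 1 UMI from -4.01 to -1.67 for Upk1a and from -1.82 to -3.17 for Upk1b, and with the 0.2% cut from -1.43 to 0.23 for Nxpe2. Ces1d has no such value, being at 0 in te2. With a library left out these levels were -4.55 to -3.01 for Upk1a, -2.40 to -1.40 for Upk1b, -3.19 to -1.19 for Cyp2f2 and -1.63 to -0.43 for Nxpe2. These leave out cases where the remaining library is at 0 (Upk1a, Cyp2f2 and Nxpe2 without te2 replicate 1, Cyp2f2 without sham replicate 2), and they rest on few counts, for Upk1a 1 and 13 UMIs in sham carriers and 1 and 0 in te2.

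Beside the 1080 genes called in proximal sums, the number called was 269 with DESeq2, 193 with thinned sums, 575 with the 0.2% cut, 681 with a gate without Wfdc2, 408 in cells led by Wfdc2, 538 in cells led by Krt4 or Cxcl17, 373 in cells of 1000 to 4000 UMIs, and 231 to 749 with a library left out (351 without sham replicate 2 or te2 replicate 1, 231 without te2 replicate 2). With no filter on low counts the split was 660 higher and 365 lower, beside 580 and 500. In whole libraries 2899 became 760 to 4412 with a library left out (4412 without sham replicate 2, 1073 without te2 replicate 1, 760 without te2 replicate 2), and totals alone moved the median of all genes from -0.01 to 0.25. The 579 calls in carriers became 130 with DESeq2, 312 with thinned sums, 1795 with at least 1 UMI, 3 with at least 3 UMIs (241 at an unadjusted p under 0.05) and 227 to 428 with a library left out (227 without sham replicate 2 or te2 replicate 2, 371 without te2 replicate 1), and no filter gave 325 higher and 178 lower. The causes of these changes in number were not tested. A replicate block, though it is not known whether the numbers pair the animals, gave 611 genes in proximal sums, 2049 in whole libraries and 594 in carriers.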
